A study of Mus musculus with 5 samples.

Results

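Hair follicles are renewed by stem and progenitor cells that sit in the outer root sheath, in the bulge below the sebaceous gland, in the hair germ beneath it and in the isthmus above it. Described here are 10 genes used to recognise or known to control these cells in mouse skin: the receptor genes Lgr5 and Lgr6, the surface marker Cd34, the keratin Krt15, the transcription factor genes Sox9, Lhx2, Nfatc1, Foxc1 and Tbx1, and the growth restraint gene Lrig1. They were chosen by name, through the Entrez identifiers of the count table, and are 10 of 27179 genes counted and 10 of 17472 genes tested. In a resting follicle the bulge is quiet, with BMP signals and NFATc1 holding its cells out of the cell cycle, and Wnt signals at the hair germ start each new growth phase. The new shaft and inner root sheath are then built by matrix cells that descend from the stem cells.

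The libraries were made from RNA of mouse ear skin of B6 background. The KO group (2 libraries) was titled Cd1d -/- and lacks Cd1d, which shows lipid antigens to natural killer T cells. The control group (3 libraries) was titled Cd1d +/- while its genotype tag reads WT, so the controls may carry 1 mutant allele. The labels state neither age nor sex, nor the kind of Cd1d mutation, nor whether each library is a separate mouse, so p-values measure the spread between these libraries, which may be technical. Library totals ran from 32353957 (control replicate 3) to 79160005 counts (control replicate 1), and 1 read equalled between 0.0119 and 0.0303 CPM (counts scaled to library size with TMM factors). Cd1d1 had 557, 757 and 182 counts in control replicates 1, 2 and 3 and 61 and 48 counts in KO replicates 1 and 2.

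None of the 10 stem cell genes differed between KO and control skin beyond the threshold of an adjusted p of 0.05 (edgeR quasi-likelihood test, adjusted over 17472 genes), against 3.76% of all genes tested. At an unadjusted p under 0.05 there was 1 of 10, Tbx1, against 21.9% of all genes, and DESeq2 also called 0, in a fit that called 10.3% of all genes. A positive log2 fold change was found for 5 genes and a negative one for 5, and the median was -0.0037, beside -0.018 over the 15809 tested genes of known length. The KO and control values did not overlap for 4 of the 10 genes, Tbx1 and Krt15 higher and Lgr6 and Nfatc1 lower in KO, against 39.9% of all genes, so the share was near that of the whole transcriptome. Scaled to library size alone it was again 4 of 10, against 44.7% of all genes, but for Lgr6, Sox9, Nfatc1 and Lrig1, without Tbx1 and Krt15. With a replicate left out the count was 5 without control replicate 1 (45.1% of all genes), 5 without control replicate 2 (53.1%), 6 without control replicate 3 (59.8%), 7 without KO replicate 1 (58%) and 5 without KO replicate 2 (59%). Each gene had at least 272 counts in every library. Fewer cells of a type and less RNA per cell cannot be told apart in such whole-tissue samples.

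**Figure D1:**
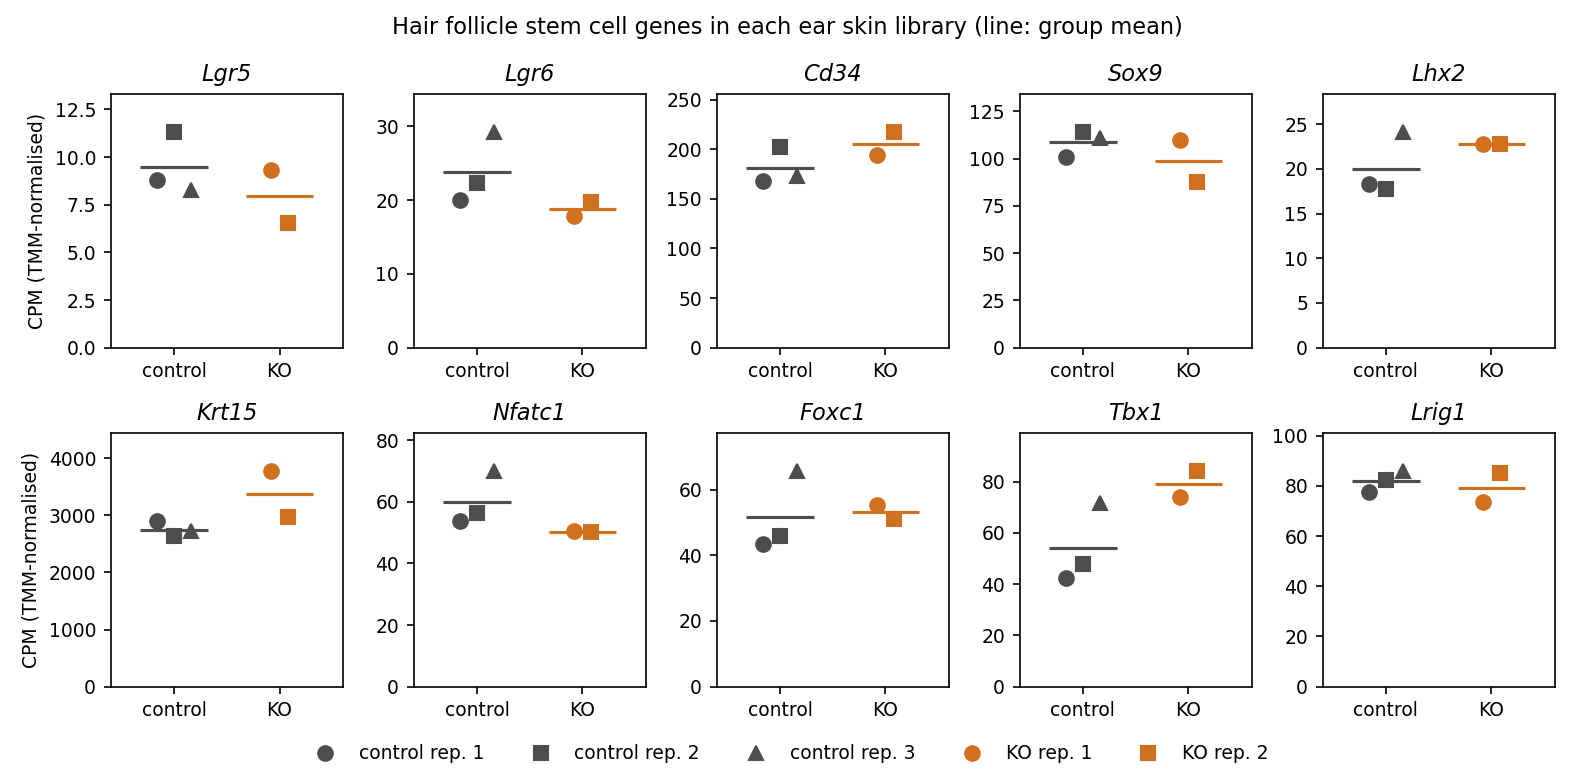
TMM-normalised CPM (y axis, from 0) of the 10 genes in each library, with controls in grey, KO in orange, a symbol per replicate and a line at the group mean. For Tbx1 and Krt15 both KO points lay above all control points, for Lgr6 and Nfatc1 below them, and the groups overlapped for the other 6 genes.

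Compared per kilobase of the longest annotated transcript, the 10 genes spanned a wide range of levels. Krt15 stood far above the rest, with a mean of 1763 CPM per kilobase over the 5 libraries (lowest 1548, highest 2217), followed by Cd34 with 62.2 (55.0 to 70.7). Tbx1 (25.5) and Sox9 (25.3) came next and their ranges overlapped. Lrig1 had 16.3 CPM per kilobase (14.9 to 17.3), separate from Sox9 and Nfatc1 but overlapping the lowest Tbx1 value (16.8). Nfatc1 (11.7), Foxc1 (8.95) and Lhx2 (7.45) followed, each overlapping the next in range. The receptor genes were lowest, with 3.27 for Lgr6 and 1.85 for Lgr5, and their ranges did not overlap. Krt15 is also made by basal cells of the epidermis, where its partner gene Krt5 and the basal keratin gene Krt14 are high. Its level is therefore not that of follicle stem cells alone.

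The receptors LGR5 and LGR6 bind R-spondins and strengthen Wnt signals, LGR5 in the lower bulge, the hair germ and the lower outer root sheath of growing follicles, and LGR6 in the isthmus and the interfollicular epidermis. Lgr5 (chromosome 10, 115450314 to 115587780 on GRCm38) had 8.82, 11.3 and 8.25 CPM in control replicates 1, 2 and 3 and 9.34 and 6.54 CPM in KO replicates 1 and 2. KO replicate 1 lay within the controls and KO replicate 2 below them. The log2 fold change was -0.26 (SE 0.20, 95% interval -0.70 to 0.19, edgeR adjusted p = 0.491).

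Lgr6 (chromosome 1, 134983300 to 135105374) had 20.0, 22.3 and 29.2 CPM in the controls and 17.9 and 19.8 CPM in KO. Both KO libraries were below every control library, the nearest pair by a small margin. Its log2 fold change of -0.34 (SE 0.17, interval -0.71 to 0.038) was the most negative of the set and did not pass (edgeR adjusted p = 0.275). Lgr4, the third receptor of the family, averaged 62.9 ± 7.71 CPM over controls (SD, n = 3), against 52.7 ± 1.08 CPM over KO libraries (SD, n = 2), with a log2 fold change of -0.26 (edgeR adjusted p = 0.286). The test called none of the 3 receptor genes, and with offsets for transcript length and GC content their values were -0.057 for Lgr5, -0.13 for Lgr6 and -0.059 for Lgr4.

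Cd34 encodes a sialomucin at the surface of bulge cells and is also expressed by endothelium, mast cells and dermal fibroblasts. Cd34 (chromosome 1, 194938821 to 194961292) had 168, 202 and 173 CPM in controls and 194 and 217 CPM in KO. The groups overlapped, since control replicate 2 exceeded KO replicate 1. Its log2 fold change was 0.18 (SE 0.13, interval -0.099 to 0.46, edgeR adjusted p = 0.432).

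The other Cd34-expressing cell types had these values beside it. Of 10 endothelial genes 1 rose, Cldn5, a tight junction gene (0.53, SE 0.12), 0 fell and 9 did not pass, with a median of -0.25. The groups did not overlap for 1 of the 10 that was higher and 6 that were lower in KO, against 39.9% of all genes. Summed levels of the endothelial genes were 393 to 413 CPM in controls and 377 to 404 CPM in KO. Of 8 fibroblast genes and of 6 mast cell genes 0 passed, with medians of -0.022 and -0.12. With length and GC offsets, calls in these lists changed: the endothelial genes Cdh5 (-0.42) and Lyve1 (-0.50) and the mast cell protease gene Cpa3 (-0.41) fell, and the endothelial gene Emcn rose (0.46, edgeR adjusted p between 0.0275 and 0.0415 for the 4 genes). The summed level was 21199 to 27484 CPM in controls and 22775 to 23533 CPM in KO for fibroblast genes, and 585 to 747 and 658 to 670.3 CPM for mast cell genes. No listed gene of these 3 types was at 0 in any library, and their part in the Cd34 level was not tested. Cldn5 did not pass with these offsets (0.16, edgeR adjusted p = 0.461) or with library size alone (0.38, edgeR adjusted p = 0.0775). Without control replicate 1 it had 0.57, in a fit that called 0 of all genes tested. Without KO replicate 1 it had 0.42, and without KO replicate 2 it had 0.64.

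Krt15, a type I keratin gene used to mark bulge cells, had 2893, 2631 and 2723 CPM in controls and 3768 and 2969 CPM in KO (chromosome 11, 100131759 to 100135949). KO replicate 1 stood well above the rest, and KO replicate 2 only just above the highest control. The log2 fold change was 0.29 (SE 0.13, interval -0.0011 to 0.59, edgeR adjusted p = 0.23), and without KO replicate 1 it was 0.11. Of 7 genes of basal keratinocytes 1 rose, Ly6d (0.61, SE 0.14), and 1 fell, the hemidesmosome integrin gene Itga6 (-0.78, SE 0.14), with a median of -0.24. The groups did not overlap for 2 of the 7 that were higher and 4 that were lower in KO, against 39.9% of all genes. Ly6d and Itga6 had 0.52 and -0.76 without control replicate 1, in a fit that called 0 of all genes tested. They had 0.68 and -0.61 without KO replicate 1, and 0.53 and -0.97 without KO replicate 2. With length and GC offsets Itga6 passed (-0.66, edgeR adjusted p = 0.0109) and Ly6d did not (0.13, edgeR adjusted p = 0.644). Ly6d also missed the threshold with library size alone (0.46, edgeR adjusted p = 0.0557). Krt14, the basal keratin that also fills the outer root sheath, had a log2 fold change of 0.17 (edgeR adjusted p = 0.475). Krt17, a keratin of the outer root sheath and of stressed epidermis, averaged 552 ± 59.4 CPM over controls (SD, n = 3), against 759 ± 29.0 CPM over KO libraries (SD, n = 2), and its log2 fold change of 0.46 (SE 0.12) missed the threshold (edgeR adjusted p = 0.0684). Krt17 passed with DESeq2 (adjusted p = 0.0115), limma voom, the replicate block, no low-count filter and without control replicate 3 (0.46 to 0.55), while with length and GC offsets it had 0.16 (edgeR adjusted p = 0.34).

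SOX9 and LHX2 are transcription factors that keep bulge cells in their state and place. Sox9 (chromosome 11, 112782210 to 112787757) had 101, 114 and 111 CPM in controls and 109.8 and 87.5 CPM in KO. Only KO replicate 2 was outside the range of the controls. The fitted log2 fold change was -0.14 (SE 0.13, interval -0.43 to 0.15, edgeR adjusted p = 0.58).

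Sox9 also drives cartilage, which forms the core of the ear. Of 10 tested cartilage genes 0 passed, with a median of -0.056 and summed levels of 502 to 621 CPM in controls and 477 and 535 CPM in KO. Matn1 was at 0 counts in 4 of the 5 libraries and was not tested, and the tested genes went both ways. The groups did not overlap for 6 of the 10, against 39.9% of all genes. Comp (0.53), Snorc (0.51) and Ucma (0.54) were higher and Acan (-0.40), Col9a1 (-0.26) and Hapln1 (-0.57) lower in KO. With length and GC offsets Comp had 0.32, Snorc -0.10 and Ucma 0.11. In that fit Acan had -0.21, Col9a1 -0.22 and Hapln1 -0.27. The part of cartilage in the Sox9 level was not tested.

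Lhx2 (chromosome 2, 38339271 to 38369737) had 18.3, 17.7 and 24.1 CPM in controls and 22.8 CPM in each KO library. The KO values lay between control replicate 3 and the other controls. This gave a log2 fold change of 0.19 (SE 0.16, interval -0.15 to 0.54, edgeR adjusted p = 0.502). The LIM homeodomain relative Lhx6 averaged 1.90 ± 0.42 CPM over controls (SD, n = 3) against 1.08 ± 0.107 CPM over KO libraries (SD, n = 2) (log2 fold change -0.81, SE 0.30, edgeR adjusted p = 0.151).

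NFATc1 and FOXC1 hold bulge cells in quiescence. Nfatc1 (chromosome 18, 80606205 to 80713071) had 53.7, 56.2 and 69.9 CPM in controls and 50.5 and 50.2 CPM in KO. Both KO libraries were below every control, close to the lowest. The log2 fold change was -0.25 (SE 0.14, interval -0.56 to 0.056, edgeR adjusted p = 0.318). Around NFATc1, 0 of 9 genes of calcineurin, the phosphatase that activates it, and of its modulators and targets passed, with a median of -0.11. The catalytic subunit gene Ppp3ca had a log2 fold change of -0.25, Ppp3cc of -0.23 and the NFAT kinase gene Dyrk1a of -0.24, while Cdk4, a cell cycle kinase gene repressed by NFATc1, had 0.19 (edgeR adjusted p between 0.275 and 0.521). With length and GC offsets Ppp3ca had -0.067, Ppp3cc -0.23, Dyrk1a -0.026 and Cdk4 0.048, and Nfatc1 itself had -0.15.

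Foxc1 (chromosome 13, 31806646 to 31810635) had 43.6, 46.0 and 65.6 CPM in controls and 55.2 and 51.0 CPM in KO. The KO values fell inside the range of the controls. The estimated log2 fold change was 0.040 (SE 0.17, interval -0.34 to 0.42, edgeR adjusted p = 0.924).

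Tbx1, a T-box transcription factor gene of activated bulge cells, showed the largest difference in the set. Tbx1 (chromosome 16, 18580979 to 18590671) had 42.3, 48.0 and 71.6 CPM in controls and 74.2 and 84.1 CPM in KO, so that KO replicate 1 was just above control replicate 3 and well above the other 2 controls. The means were 54.0 ± 15.5 CPM (SD, n = 3) and 79.2 ± 6.95 CPM (SD, n = 2), a log2 fold change of 0.56 (SE 0.20, interval 0.12 to 0.99). It did not pass over all genes (edgeR adjusted p = 0.132). Without control replicate 3 the log2 fold change was 0.81 (SE 0.11, edgeR adjusted p = 0.000826) in a fit that called 18.8% of all genes, and with length and GC offsets and without that library it was 0.41 (edgeR adjusted p = 0.0403, 4.62% of all genes called). The fit with a replicate block called it too (0.81, 11.7% of all genes called), but control replicate 3 is alone in its block and so adds nothing to that contrast, which nearly repeats the fit without it. Limma voom with sample weights also called it (0.81, adjusted p = 0.00184, 26.7% of all genes called). That fit gave control replicate 1, which had the lowest Tbx1 level, a weight of 3.36 and control replicates 2 and 3 weights of 0.46 and 0.438. DESeq2 gave an adjusted p of 0.050047.

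Other T-box genes had smaller values, with log2 fold changes of 0.080 for Tbx2, 0.16 for Tbx3, -0.030 for Tbx15 and -0.30 for Tbx18. TBX1 also acts in muscle progenitors of the head and in lymphatic endothelium. Of 8 muscle genes 0 passed, with a median of 0.32. With length and GC offsets 1 rose, the creatine kinase gene Ckm (0.37, edgeR adjusted p = 0.0477). Their summed level was 3173 to 3461 CPM in controls and 3718 and 4334 CPM in KO. The largest term of this sum was Acta1, with 1167, 1239.6 and 1369.5 CPM in controls and 1554 and 1846 CPM in KO. The groups did not overlap for 5 of the 8 genes, all higher in KO, against 39.9% of all genes. Myh1 (-0.086) and Pax7 (-0.59) had negative log2 fold changes. None of the 8 was at 0 in any library, and the lymphatic genes Prox1 and Lyve1 had log2 fold changes of -0.95 and -0.53 without passing (edgeR adjusted p = 0.0662 and 0.0677), though Lyve1 passed with length and GC offsets (-0.50, adjusted p = 0.0275). The part of muscle in the Tbx1 level was not tested.

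Lrig1 encodes a transmembrane protein that restrains EGF receptor signalling and marks progenitors next to the sebaceous gland. Lrig1 (chromosome 6, 94604529 to 94700298) had 77.6, 82.5 and 85.8 CPM in controls and 73.6 and 85.0 CPM in KO. This was the steadiest gene of the set, with a highest library 1.17 times the lowest, against 1.99 times for Tbx1. The log2 fold change was -0.047 (SE 0.12, interval -0.31 to 0.22, edgeR adjusted p = 0.864). Lrig3 had a log2 fold change of -0.31 and did not pass (edgeR adjusted p = 0.265). Of 8 sebaceous gland genes 1 rose, the wax synthase gene Awat2 (0.65, SE 0.14, edgeR adjusted p = 0.032), and 7 did not pass, with a median of -0.014. Awat2 passed with length and GC offsets (0.55, edgeR adjusted p = 0.0242) but not with library size alone (0.50, edgeR adjusted p = 0.0571). Without control replicate 1 it had 0.71, in a fit that called 0 of all genes tested. Without KO replicate 1 it had 0.58, and without KO replicate 2 it had 0.72.

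**Figure D2:**
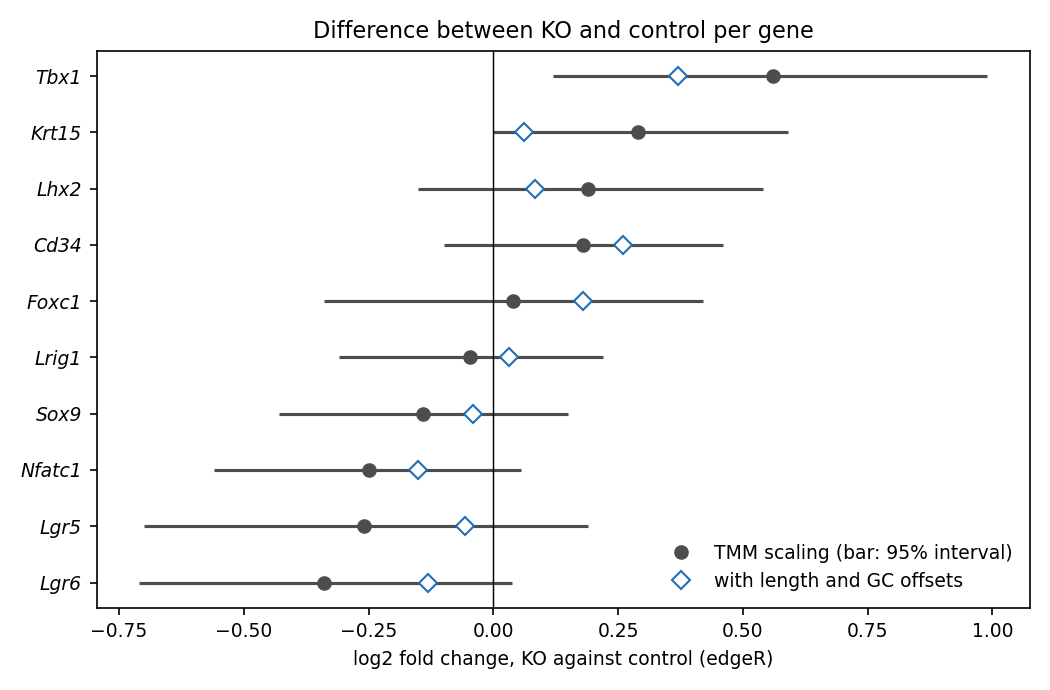
Log2 fold change of KO against control (x axis) for the 10 genes, as filled points with 95% intervals from the edgeR fit and as open diamonds from the fit with offsets for transcript length and GC content. Only the interval of Tbx1 (0.12 to 0.99) left out 0. With offsets the values of all genes but Cd34 and Foxc1 lay nearer to 0.

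The 10 genes differ in length and base composition in ways that moved with these values. Their longest GENCODE transcripts ran from 1700 bases (Krt15) to 6675 bases (Lgr6), with a median of 4464 bases against 3271 bases over all genes with a known length. Spearman's rho between log2 fold change and transcript length was -0.78 over the 10 genes and -0.55 over 15809 tested genes, and with GC content it was 0.64 and 0.33. These are descriptions over genes that share the same 5 libraries. When each library's trend on length and GC content was taken out with offsets, the log2 fold change went from 0.29 to 0.062 for Krt15, from -0.34 to -0.13 for Lgr6, from -0.26 to -0.057 for Lgr5 and from 0.56 to 0.37 for Tbx1 (adjusted p = 0.0644). Sox9 (-0.04), Lhx2 (0.084), Nfatc1 (-0.15) and Lrig1 (0.032) also had smaller absolute values with offsets. Cd34 and Foxc1 went the other way, from 0.18 to 0.26 and from 0.040 to 0.18. None of the 10 genes passed in that fit, where 3.31% of all genes did, and the groups did not overlap for 2 genes, Cd34 and Tbx1, against 36.8% of all genes.

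Control replicate 3, the library with the fewest counts, had the highest value of all 5 libraries for 5 of the 10 genes, Lgr6, Lhx2, Nfatc1, Foxc1 and Lrig1, against 22.6% of all genes tested. It was 1.59 times the mean of control replicates 1 and 2 for Tbx1, 1.46 times for Foxc1, 1.38 times for Lgr6, 1.34 times for Lhx2 and 1.27 times for Nfatc1. For the remaining genes this ratio ran from 0.819 (Lgr5) to 1.07 (Lrig1). The genes with a high ratio had transcripts of 52.6% to 62.8% GC, and the genes with the lowest ratios, Lgr5 and Cd34, had 44.7% and 42.8%. Krt15 (55.3% GC) and Lrig1 (55.1%) lay in the same range of GC content as the first group but had ratios of 0.986 and 1.07. Over all genes with a known transcript, the log2 ratio of this library to the other controls had a Spearman's rho of 0.67 with GC content and of -0.11 with length.

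**Figure D3:**
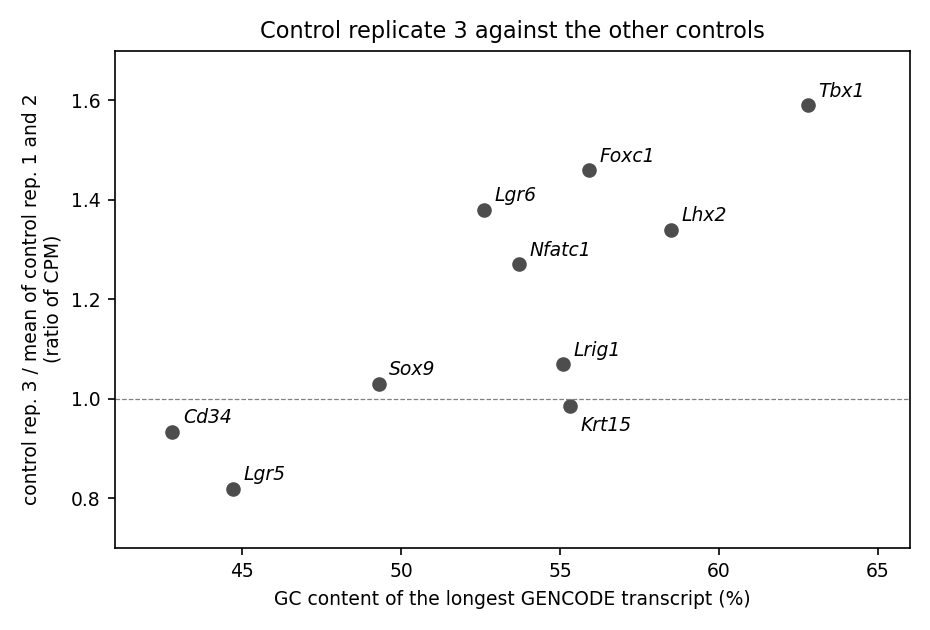
Ratio of CPM in control replicate 3 to the mean of control replicates 1 and 2 (y axis) against the GC content of the longest transcript (x axis, %) for the 10 genes. Tbx1, with the highest GC content (62.8%), had the highest ratio (1.59), and Lgr5 (44.7%) had the lowest (0.819).

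The promoter windows of the genes with the most positive and the most negative difference, Tbx1 and Lgr6, are shown to set these genes beside motifs of the factors in the set, with that of Foxc1 for its NFAT matches. The windows cover 250 bases before to 50 bases after an annotated start and are from RefSeq (GRCm38.p6). Capitals mark a match, on either strand, to a short motif of 6 factor families to which members belong or with which they act. The motif searched for SOX factors was AACAATG. For LIM homeodomain factors such as LHX2 the letters were TAATTA, a palindrome. The core searched for NFAT was GGAAAA. Forkhead factors such as FOXC1 were represented by the letters TGTTTAC. The T-box motif, for TBX1, was GGTGTGA. Lastly, TCF/LEF factors, which carry Wnt signals to genes, were given by CTTTGAT. No matches overlapped each other in these windows.
Lgr6: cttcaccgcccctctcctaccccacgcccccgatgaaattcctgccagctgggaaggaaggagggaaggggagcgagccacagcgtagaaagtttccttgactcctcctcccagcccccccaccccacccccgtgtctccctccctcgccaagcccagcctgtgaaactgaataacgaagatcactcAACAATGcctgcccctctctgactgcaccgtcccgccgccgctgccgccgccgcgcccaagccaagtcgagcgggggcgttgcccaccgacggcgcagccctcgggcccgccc
Tbx1, upstream start: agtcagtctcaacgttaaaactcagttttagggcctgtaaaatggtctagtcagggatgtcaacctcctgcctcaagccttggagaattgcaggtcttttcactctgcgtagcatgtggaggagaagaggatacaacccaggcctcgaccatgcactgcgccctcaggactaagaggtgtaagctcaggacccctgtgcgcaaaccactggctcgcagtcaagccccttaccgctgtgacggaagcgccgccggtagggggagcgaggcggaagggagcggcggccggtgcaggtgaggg
Tbx1, downstream start: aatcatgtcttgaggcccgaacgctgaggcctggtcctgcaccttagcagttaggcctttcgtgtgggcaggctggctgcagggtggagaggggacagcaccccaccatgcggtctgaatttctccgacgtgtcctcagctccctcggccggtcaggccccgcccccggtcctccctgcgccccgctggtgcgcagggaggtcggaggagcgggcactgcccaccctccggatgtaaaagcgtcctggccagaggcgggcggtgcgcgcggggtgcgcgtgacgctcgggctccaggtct
Foxc1: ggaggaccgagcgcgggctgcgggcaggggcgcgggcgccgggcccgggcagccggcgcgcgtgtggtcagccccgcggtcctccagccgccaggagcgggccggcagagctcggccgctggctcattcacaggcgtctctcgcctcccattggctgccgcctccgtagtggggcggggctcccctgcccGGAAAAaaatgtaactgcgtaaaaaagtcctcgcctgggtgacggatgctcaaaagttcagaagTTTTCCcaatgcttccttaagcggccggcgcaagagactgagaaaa
The Lgr6 window (chr1:135105227-135105526, minus strand) holds 1 SOX motif, AACAATG, whose first base is at -63 from the start, and its GC content is 67.7%. The Tbx1 windows (chr16:18590622-18590921 and chr16:18588850-18589149, minus strand) hold none of the 6 motifs. The Foxc1 window (chr13:31806396-31806695, plus strand) holds the NFAT motif on the plus strand from -60 and on the minus strand from 5 bases after the start. A promoter was found in this table for 6 of the 10 genes, in 8 windows. The SOX motif was in 1 of these 8 windows and in 3.78% of 32851 windows of all genes, and the NFAT motif was in 2 of the 8, of Foxc1 and Lhx2, and in 23.4% of all windows. The LIM homeodomain (5.29% of all windows), forkhead (3.65%), T-box (3.98%) and TCF/LEF (3.73%) motifs were in none of the 8.

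Growing follicles, unlike resting ones, make keratins of the shaft and of its inner sheath, and the genes for these differed sharply between the libraries. Of 18 such genes 0 passed between KO and control (smallest edgeR adjusted p = 0.0632). The summed level of the 18 was 769 CPM in KO replicate 1, 23.7 CPM in KO replicate 2 and 16.9 to 33.5 CPM in the controls. The median of the stem cell genes showed no such split, while single genes differed. Their median log2 deviation from the control mean was 0.053 for KO replicate 1, where the hair keratin genes had 4.04. For KO replicate 2 it was 0.016, where the hair keratin genes had -0.15.

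Between the KO libraries, Lgr5 was 1.43 times as high in replicate 1 as in replicate 2, Krt15 1.27 times and Sox9 1.26 times. A ratio of at least 1.25 was found for 12.4% of all genes tested, and the other 7 stem cell genes had ratios between 0.865 (Lrig1) and 1.08 (Foxc1). A list of 10 matrix regulators had a median log2 deviation of 0.40 in KO replicate 1 and -0.078 in KO replicate 2, and 0 of 10 passed. Shh, the ligand gene of growing follicles, had 2.70 CPM in KO replicate 1 and 0.07 to 0.364 CPM elsewhere, and Hoxc13, a regulator of hair keratin genes, had 13.1 CPM in KO replicate 1 and 5.11 to 7.66 CPM elsewhere. KO replicate 1 was also the highest library for Msx2 (30 CPM, 17.8 to 22.9 elsewhere) and Dlx3 (54.8 CPM, 30.2 to 42.4 elsewhere). The same held for Lef1 (5.74 CPM, 3.05 to 4.4 elsewhere) and Gata3 (263 CPM, 192 to 243 elsewhere). The remaining matrix regulators lay within the controls there. KO replicate 1 had 10 CPM of Foxn1 (controls 7.46 to 12.7) and 42.5 CPM of Cux1 (36.0 to 50). It had 73.5 CPM of Ovol1 (61.5 to 83.6) and 22.2 CPM of Msx1 (13.4 to 29.5). These are values of single libraries without a test.

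**Figure D4:**
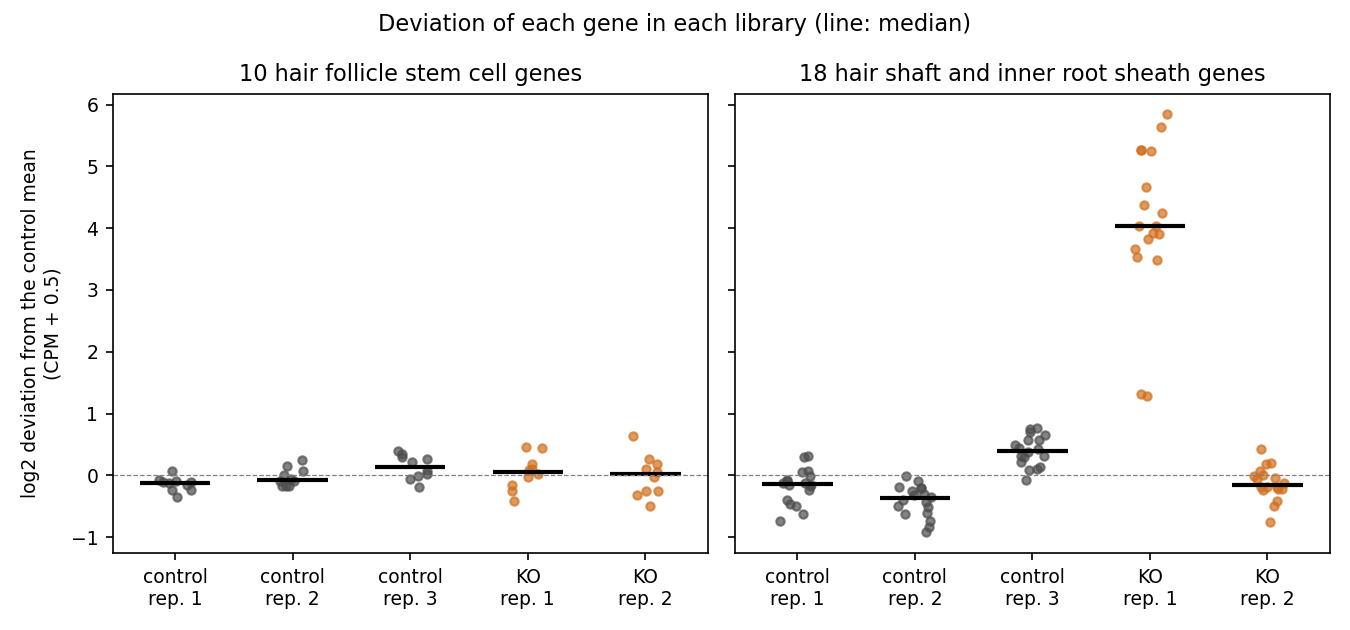
Deviation of each gene from its control mean on the log2 scale of CPM plus 0.5 (y axis) in each library, for the 10 stem cell genes (left) and 18 hair shaft and inner root sheath genes (right), with a line at the median. KO replicate 1 stood at a median of 4.04 for the hair keratin genes and 0.053 for the stem cell genes.

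A wider list of 19 genes that mark or regulate follicle stem and progenitor cells gave 0 genes past the threshold in either direction, with a median of 0.022. The genes with the smallest p were Npnt, the bulge matrix protein nephronectin (-0.30, SE 0.12), Hopx, a homeodomain gene of the lower bulge (0.26, SE 0.13), Foxi3, a forkhead gene of the hair germ (0.92, SE 0.49), and the vitamin D receptor gene Vdr (-0.20, SE 0.12). Their adjusted p by edgeR lay between 0.181 and 0.36. Of 19 relatives of the 10 genes by family, 0 passed and the median was -0.15.

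In Wnt and R-spondin signalling, 1 of 25 tested genes fell, 0 rose and 24 did not pass, with a median of -0.070. The gene that fell was Znrf3, a ligase that removes Wnt receptors unless R-spondin and an LGR receptor clear it. It had 21.0, 21.9 and 21.6 CPM in controls and 13.5 and 14.6 CPM in KO, and the groups were far apart. Its log2 fold change was -0.61 (SE 0.13, edgeR adjusted p = 0.0308), while its partner Rnf43 did not pass (-0.22). The Wnt co-receptor gene Lrp6 (-0.47, SE 0.13), the R-spondin gene Rspo1 (0.30, SE 0.13) and the receptor gene Fzd7 (-0.29, SE 0.12) followed by p and did not pass (edgeR adjusted p between 0.0685 and 0.208). Lrp6 passed in 6 alternatives, among them DESeq2 (adjusted p = 0.0128), and had -0.14 with length and GC offsets (edgeR adjusted p = 0.399). The Wnt feedback gene Axin2 had -0.23 and Lef1 0.34.

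In BMP signalling, 1 of 20 genes fell, 0 rose and 19 did not pass, with a median of -0.020. Bmpr2, the type II BMP receptor gene, had 9.16, 7.13 and 8.71 CPM in controls and 3.82 and 3.50 CPM in KO. Its log2 fold change was -1.18 (SE 0.18, edgeR adjusted p = 0.0188). The BMP target gene Id3 (0.45, SE 0.18), the effector gene Smad9 (-0.58, SE 0.24) and the ligand gene Bmp2 (-0.29, SE 0.13) did not pass (edgeR adjusted p between 0.178 and 0.221). Znrf3 and Bmpr2 have long transcripts of 6311 and 12899 bases. With length and GC offsets neither passed (-0.41 and -0.79, edgeR adjusted p = 0.0571 and 0.0552). Without control replicate 1 or either KO replicate, their log2 fold changes ran from -0.67 to -0.56 and from -1.25 to -1.11. The fit without control replicate 1 called 0 of all genes tested. With the offsets 1 BMP gene rose instead, the effector gene Smad5 (0.35, edgeR adjusted p = 0.0324). Id3 passed with limma voom (0.54), with the replicate block and without control replicate 3 (0.67 in both), and had 0.13 with offsets.

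Of 12 Hedgehog genes 0 passed, with a median of -0.10. The co-receptor gene Cdon (-0.40, SE 0.13), the receptor and target gene Ptch1 (-0.52, SE 0.19), Shh (2.85, SE 1.30, high in KO replicate 1 alone) and Gli3 (-0.19, SE 0.14) had the smallest p (edgeR adjusted p between 0.109 and 0.47). Cdon passed with library size alone, DESeq2, limma voom and without control replicate 3 (-0.55 to -0.38), and Ptch1 with library size alone (-0.66), while with length and GC offsets they had -0.13 and -0.19. Gli1, a target that marks stem cells of the upper bulge and hair germ, had a log2 fold change of -0.054 (SE 0.18).

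**Figure D5:**
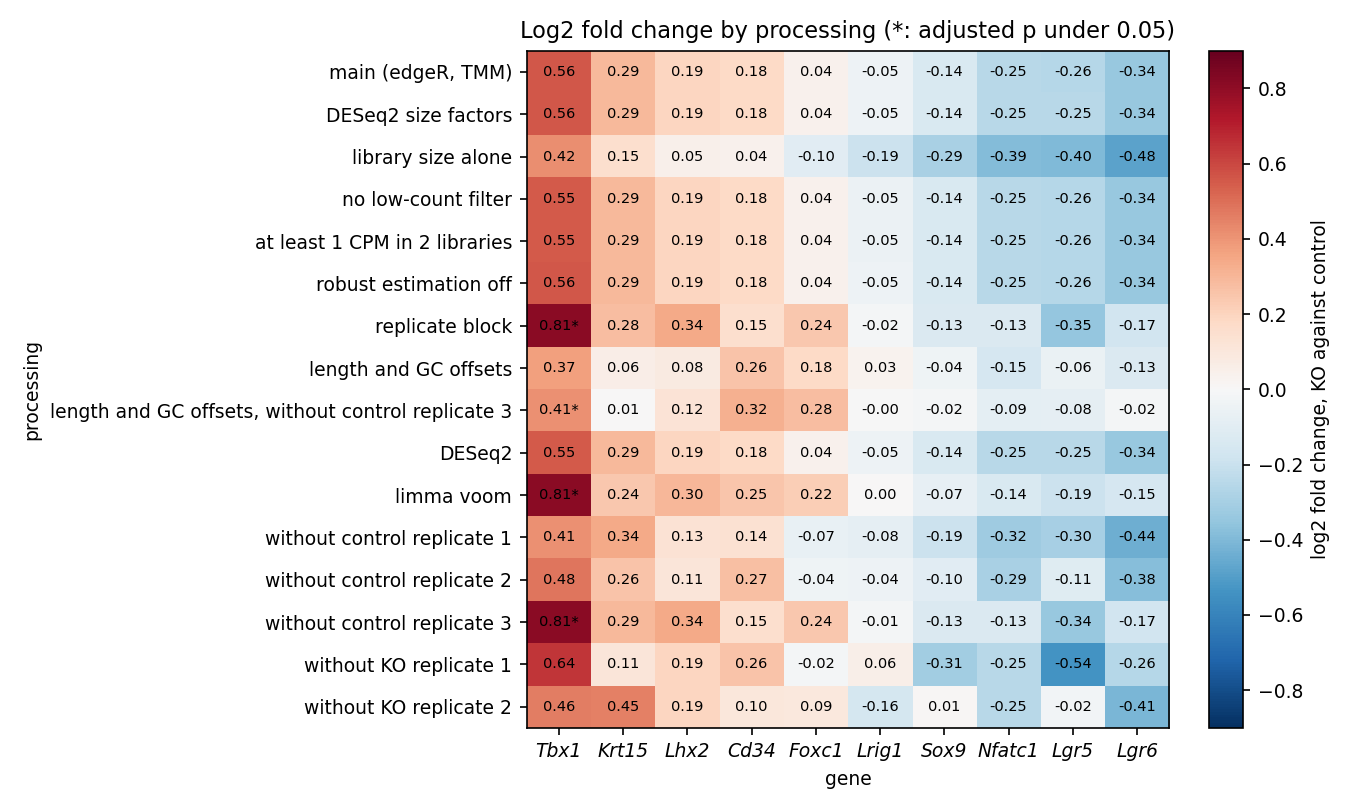
Log2 fold change of KO against control (colour and printed value) for the 10 genes (columns) under each processing (rows), with an asterisk at an adjusted p under 0.05. Asterisks appear for Tbx1 alone, in the fits with a replicate block, without control replicate 3, with length and GC offsets without control replicate 3, and with limma voom.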

How the data were processed

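Total RNA libraries of ear skin from 5 samples were grouped by their titles. What the authors deposited is a table of raw counts per Entrez gene, in whole numbers. FastQC, HISAT2 2.0.4, DESeq2 1.16.1 and GRCm38 (mm10) are named per the submitters' processing notes. Not given in the sources used here are the program that counted reads, its strand setting and its rule for shared reads. Genes annotated on the opposite strand overlap Lgr5 (A930009A15Rik), Cd34 (Gm16897), Lhx2 (Gm27197 and Gm13584), Nfatc1 (AC123818.1) and Lrig1 (Slc25a26), so their counts may hold other reads.

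Symbols and positions came from RefSeq (25275 of 27179 identifiers), and transcript length and GC content from the longest GENCODE M21 transcript (21572). Counts were filtered with filterByExpr, scaled with TMM and tested with edgeR 4.0.16 (quasi-likelihood, robust, R 4.3.3), with Benjamini-Hochberg adjustment over 17472 genes, after the code was tested on simulated data. Intervals are 95% intervals of the fit. Gene lists are described by counts and medians. Members and lists were chosen with earlier results of these data known, and the motifs with the promoter windows in view. All 10 members are named, with the 4 smallest p of each pathway list and every listed gene that passed here or with length and GC offsets. Krt14, Rnf43, Axin2, Lef1, Gli1, Prox1, Pecam1, Pdgfra, the T-box relatives and the cartilage, muscle and matrix genes were picked after their values were seen. Krt85 was not in the table used here, and Dkk1 and Matn1 had too few counts to test. The alternatives were DESeq2 1.42.0, limma 3.58.1 (voom), other scalings and filters, robust estimation off, a replicate block, mgcv 1.9.3 offsets on length and GC, and leaving out each replicate. Libraries of a group differed by more than sampling noise (chi-square per degree of freedom of 22.9 to 76.3).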

Additional observations from a re-analysis of the deposited data

How the results depend on the processing

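Of the 10 genes, Tbx1 alone passed under any alternative. The count of members higher in KO was 1 with the replicate block, 1 with limma voom, 1 without control replicate 3 and 1 with length and GC offsets without control replicate 3 (log2 fold change 0.41, adjusted p = 0.0403, an alternative chosen after seeing the data), and 0 in the others. It ranged from 0 to 1 over the fits with a replicate left out. No member passed as lower in any fit. The count of all genes past the threshold was 657 as reported, 1242 with library size alone, 1036 with no low-count filter, 2037 with the replicate block, 1808 with DESeq2, 4662 with limma voom, and 0 to 3277 with a replicate left out. Scaling to library size alone shifted the median of the members to -0.15. Members whose groups did not overlap numbered 4, then 2 with length and GC offsets (Cd34 and Tbx1), and 5 to 7 with a replicate left out. Whether replicate numbers mark pairs is not known. Deviations of same-numbered libraries correlated at 0.016 and 0.0641, but the deviations of 2 KO libraries mirror each other, so these values cannot decide it. Control replicate 3 is alone in its block, so the replicate block fit nearly repeats the fit without it for the members (median 0.068 against 0.067).

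Signs of 7 named genes turned. Foxc1 was -0.10 with library size alone and between -0.067 and 0.24 with a replicate left out. Lrig1 was 0.032 with length and GC offsets, 0.0011 with limma voom and between -0.16 and 0.055 with a replicate left out, and Sox9 was 0.014 without KO replicate 2 and -0.31 without KO replicate 1. Gli3 was 0.10 with offsets, and with offsets and without control replicate 3 Gli3 was 0.093, Ptch1 0.017 and Rspo1 -0.03. Shh was -1.46 without KO replicate 1 and 3.81 without KO replicate 2. Where 1 KO library remained, its spread was taken from that of the controls. Among other genes named, limma voom alone also called Lrig3, Dyrk1a, Cdk4, Foxi3 and Rspo1, Ppp3ca passed with limma voom and without control replicate 3, and Hopx without control replicate 3. The cause of these shifts was not tested.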

Other observations

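Within each library, levels per kilobase can be set against a gene of a neighbouring cell type. The ratio of Krt15 to Krt14 was 0.493, 0.464 and 0.403 over the controls, with 0.573 for KO replicate 1, above them, and 0.418 for KO replicate 2, within their range. The ratio of Lgr5 to Lgr6 was 0.613, 0.708 and 0.394 in controls and 0.728 and 0.46 in KO, with overlapping groups. Groups also overlapped for Krt15 to Krt5 and Sox9 to Acan. They did not for Cd34 to the endothelial gene Pecam1, with 2.42, 2.73 and 2.65 in controls and 3.37 and 4.08 in KO. Nor did they for Cd34 to the fibroblast gene Pdgfra (6.46, 7.56 and 6.93 in controls, at least 10.1 in KO). Pecam1 and Pdgfra had log2 fold changes of -0.33 and -0.38 without passing, and -0.30 and -0.12 with length and GC offsets. All pairs were chosen after the levels had been seen, and no test of the ratios was made.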
